A study of Saccharomyces cerevisiae with 2 samples.

Results

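The 54 genes described here encode enzymes of the tricarboxylic acid (TCA) cycle, of the glyoxylate cycle and of fatty acid oxidation. They also encode peroxins that build peroxisomes and 3 transcription factors of the same pathways. They were chosen by gene symbol from the annotation of the array, by a rule that uses no signal, and all 54 of 54 were measured, out of 5656 genes with a probe set of their own. The cells were budding yeast (Saccharomyces cerevisiae) of a mutant strain, named H3 K4,36,79R in the labels, whose histone H3 has arginine instead of lysine at residues 4, 36 and 79. They had been grown in selective galactose medium, where wild-type H3 was expressed as well, and then spent 18 hours in selective glucose medium, which repressed wild-type H3 and left the mutant protein as the only H3 being made. The study asked which genes the mutant regulates. The data are 2 Affymetrix arrays of this single group, labelled replicate 1 and replicate 2. The sample titles do not say whether the replicates are separate cultures. Wild-type cultures and earlier times were not analysed here. The values therefore give transcript levels in the mutant in glucose and their spread between replicates, and no difference between groups.

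In yeast, fatty acids are oxidised only in peroxisomes, and the acetyl-CoA that results is either carried to mitochondria as acetylcarnitine or used by the glyoxylate cycle, which bypasses the carbon-losing steps of the TCA cycle. The peroxins import enzymes into peroxisomes and insert peroxisomal membrane proteins. The genes of the glyoxylate cycle and of fatty acid oxidation are known to be repressed by glucose and, for the latter, induced by oleate through Oaf1, Pip2 and Adr1. TCA cycle genes are also lowered by glucose, but the mitochondrial cycle still supplies precursors for amino acid synthesis during fermentation.

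Signals are linear MAS5 values in arbitrary units, as deposited. A level is given as the signal on each array or as mean ± SD over the replicates (n = 2). The median signal over all genes was 39.0 on replicate 1 and 39.7 on replicate 2. All 54 genes exceeded the foreign-probe background on both arrays, which was 1.86 for replicate 1 and 1.69 for replicate 2 and was set by control probe sets for mouse genes and for antisense strands of bacterial genes. Of all genes 98.7% did so too, and passing it does not show expression. Probe sets differ in how strongly they bind their transcript, so signals of different genes have no common scale. Ranks by signal describe these arrays only, and no order of transcript levels between genes or groups of genes is read from them. Where a group lies among all genes is given as a count, to describe these arrays. RNA quality can be read from controls at both ends of a transcript. The 3′ over 5′ signal was 1.61 and 1.57 on replicates 1 and 2 for actin (ACT1), and 2.85 and 3.25 for SPT15, which encodes the TATA-binding protein.

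Each group is described beside all genes of the array. The median signal was 224.1 over 13 genes of the mitochondrial TCA cycle, which do not include those of succinate dehydrogenase. It was 327.1 over 4 genes that make pyruvate from malate or bring pyruvate into the cycle, called pyruvate entry here. It was 59.9 over 7 glyoxylate cycle genes and their cytosolic or peroxisomal isoenzymes, and 23.3 over 13 genes of fatty acid oxidation and carnitine transport. The median was 23.1 over 14 peroxin genes and 43.4 over the 3 regulators. The brightest 25% of genes on both arrays, which hold 24.2% of all genes, included 12 of the 13 mitochondrial TCA genes and 4 of the 4 pyruvate entry genes. They also included 3 of the 7 glyoxylate genes, 1 of the 14 peroxin genes, and 0 of the 13 fatty acid oxidation genes and 0 of the 3 regulators. The dimmest 25% on both arrays, which hold 23.0% of all genes, included 5 of the 13 fatty acid oxidation genes, 4 of the 14 peroxin genes and 1 gene each of the mitochondrial TCA and glyoxylate groups. The differences between groups were not tested, since they set different probe sets against each other.

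**Figure D1:**
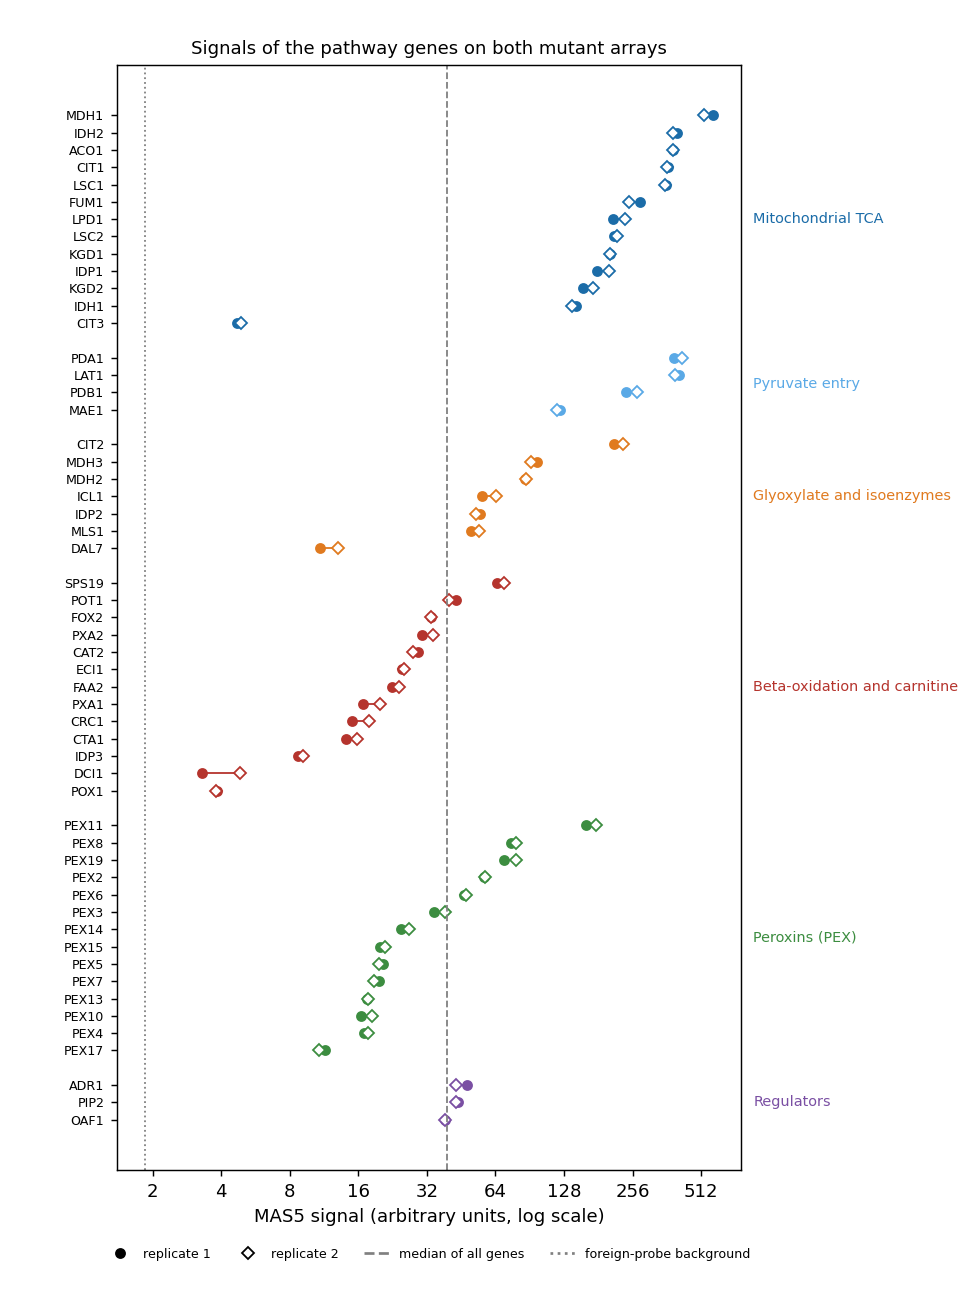
MAS5 signals (log scale) of the 54 genes on replicate 1 (filled circles) and replicate 2 (open diamonds), ordered by mean signal within each group, with the median of all genes (dashed) and the higher of the 2 foreign-probe backgrounds (dotted). The mitochondrial TCA genes other than CIT3 lie to the right of the median of all genes, while most genes of fatty acid oxidation and most peroxin genes lie to its left, and the pair of points of a gene is short against the distance between most genes.

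**Figure D2:**
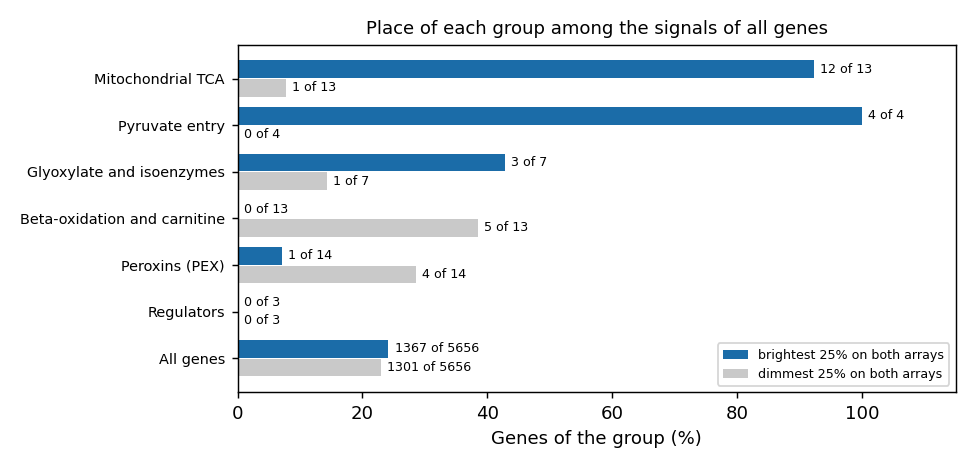
Percent of each group's genes whose signal lay in the brightest 25% (blue) or the dimmest 25% (grey) of all genes on both arrays, with the counts printed beside the bars. The mitochondrial TCA bars stand at 12 of 13 and 1 of 13, and the fatty acid oxidation bars at 0 of 13 and 5 of 13.

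The TCA cycle begins with citrate synthase. CIT1, its main mitochondrial form, gave 367.1 on replicate 1 and 361.8 on replicate 2. CIT3, a minor mitochondrial form, gave 4.67 on replicate 1 and 4.90 on replicate 2, in the dimmest 25% of genes on both arrays, and was the exception in its group. ACO1, the aconitase that turns citrate into isocitrate, gave 385.6 on replicate 1 and 387.4 on replicate 2, a log2 difference (replicate 2 minus replicate 1) of 0.0066. The SD between the replicates was 1.04% of the mean for CIT1 and 0.321% for ACO1 (n = 2).

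Isocitrate is oxidised in mitochondria by an NAD-dependent enzyme of 2 subunits, Idh1 and Idh2, and by the NADP-dependent Idp1. IDH1 gave 145.3 on replicate 1 and 138.9 on replicate 2, and IDH2 gave 402.7 on replicate 1 and 383.8 on replicate 2. As deposited, both subunit genes were slightly lower on replicate 2, with log2 differences of -0.06 and -0.07, smaller than the SD of 0.15 and 0.13 among genes of like signal. IDP1 gave 179.1 on replicate 1 and 201.2 on replicate 2, and its log2 difference of 0.17 was larger than the SD of 0.15 among genes of like signal. Those genes had a median difference of 0.02.

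Alpha-ketoglutarate dehydrogenase is built from Kgd1, Kgd2 and Lpd1, the last of which also serves in pyruvate dehydrogenase. KGD1 gave 204.5 on replicate 1 and 203.0 on replicate 2. KGD2 gave 155.5 on replicate 1 and 172.2 on replicate 2. The shared LPD1 gave 211.0 on replicate 1 and 237.1 on replicate 2. The log2 difference was -0.01 for KGD1, whereas KGD2 and LPD1 were higher on replicate 2 by log2 differences of 0.15 and 0.17. The subunit genes of succinyl-CoA ligase, the enzyme of the next step, gave 358.4 on replicate 1 and 353.8 on replicate 2 for LSC1 and 211.7 on replicate 1 and 218.1 on replicate 2 for LSC2. FUM1, the fumarase that is found in both mitochondria and cytosol, gave 275.2 on replicate 1 and 247.1 on replicate 2. MDH1, the mitochondrial malate dehydrogenase that closes the cycle, gave 575.7 on replicate 1 and 525.5 on replicate 2. FUM1 and MDH1 were lower on replicate 2 by log2 differences of -0.16 and -0.13, each larger than the SD among genes of like signal (0.13 and 0.11). Genes as bright as MDH1 were themselves lower on replicate 2, with a median difference of -0.06. For genes of like signal to FUM1 the median was -0.0007.

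Pyruvate enters the cycle through pyruvate dehydrogenase. Its subunit genes gave 388.7 on replicate 1 and 422.2 on replicate 2 for PDA1 and 239.5 on replicate 1 and 267.0 on replicate 2 for PDB1, which encode the alpha and beta subunits of the first component. LAT1, for the acetyltransferase core, gave 408.3 on replicate 1 and 393.4 on replicate 2. MAE1, the mitochondrial malic enzyme that makes pyruvate from malate, gave 122.9 on replicate 1 and 118.8 on replicate 2. PDA1 and PDB1 were higher on replicate 2 and LAT1 and MAE1 lower, with log2 differences from -0.05 to 0.16. All 4 were in the brightest 25% of genes on both arrays.

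The glyoxylate cycle has 2 enzymes of its own. ICL1, the isocitrate lyase, gave 55.7 on replicate 1 and 64.1 on replicate 2, and MLS1, the malate synthase, gave 50.2 on replicate 1 and 54.3 on replicate 2. Both genes were above the median of all genes on both arrays and below the brightest 25%. ICL1 was higher on replicate 2 by a log2 difference of 0.20, larger than the SD of 0.18 among genes of like signal, and MLS1 by 0.11, smaller than that SD. The median difference among genes of like signal was 0.04. DAL7, a second malate synthase that is known for its regulation with allantoin breakdown, gave 10.9 on replicate 1 and 13.0 on replicate 2, in the dimmest 25% on both arrays.

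The isoenzymes outside mitochondria complete the group. CIT2, the peroxisomal citrate synthase and a known target of the retrograde pathway that reports mitochondrial state to the nucleus, gave 211.7 on replicate 1 and 232.5 on replicate 2. CIT2 was in the brightest 25% of genes on both arrays, as was CIT1. MDH2, the cytosolic malate dehydrogenase, gave 86.7 on replicate 1 and 87.3 on replicate 2, and MDH3, the peroxisomal one, gave 97.2 on replicate 1 and 91.9 on replicate 2. Both were also in the brightest 25%, with log2 differences of 0.01 and -0.08. IDP2, the cytosolic NADP-dependent isocitrate dehydrogenase, gave 54.8 on replicate 1 and 52.4 on replicate 2. Among the citrate synthase genes the signals were therefore 364.4 ± 3.80 for CIT1, 222.1 ± 14.7 for CIT2 and 4.78 ± 0.164 for CIT3 (SD, n = 2), and among the NADP-dependent isocitrate dehydrogenase genes they were 190.1 ± 15.6 for IDP1, 53.6 ± 1.71 for IDP2 and 8.88 ± 0.332 for the peroxisomal IDP3. These values stand side by side without an order, because each comes from a different probe set.

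Fatty acids reach the peroxisome through the transporter made of Pxa1 and Pxa2, or are activated inside by Faa2. PXA1 gave 16.8 on replicate 1 and 20.0 on replicate 2. PXA2 gave 30.5 on replicate 1 and 34.2 on replicate 2. The acyl-CoA synthetase gene FAA2 gave 22.4 on replicate 1 and 24.1 on replicate 2. All 3 were higher on replicate 2 as deposited, by log2 differences of 0.25, 0.16 and 0.10, and the first of these was larger than the SD of 0.22 among genes of like signal. Genes of like signal to PXA1 had a median difference of 0.04.

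The core of beta-oxidation is run by Pox1, Fox2 and Pot1. POX1, the acyl-CoA oxidase of the first step, gave 3.83 on replicate 1 and 3.80 on replicate 2, in the dimmest 25% on both arrays. The annotation gives 3 further probe sets for POX1, with signals of 2.62 and 1.82, 2.41 and 1.93, and 0.944 and 0.521 on replicates 1 and 2. The last was not above the foreign-probe background, and all 4 probe sets of POX1 were dim on both arrays. FOX2, which encodes the hydratase and dehydrogenase of the middle steps, gave 33.2 on replicate 1 and 33.2 on replicate 2, a log2 difference of -0.0019. POT1, the ketoacyl-CoA thiolase of the last step, gave 42.8 on replicate 1 and 39.8 on replicate 2. FOX2 lay below the median of all genes on both arrays and POT1 just above it. CTA1, the peroxisomal catalase that removes the hydrogen peroxide made by Pox1, gave 14.1 on replicate 1 and 15.7 on replicate 2, in the dimmest 25% on both arrays.

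Unsaturated fatty acids need auxiliary enzymes. ECI1, an enoyl-CoA isomerase, gave 24.9 on replicate 1 and 25.4 on replicate 2, and its paralogue DCI1, a dienoyl-CoA isomerase, gave 3.30 on replicate 1 and 4.85 on replicate 2. The difference for DCI1, a log2 of 0.55, was the furthest from 0 of the 54 genes, at a signal where genes of like brightness had an SD of 0.30. Its mean signal was 4.07, and genes with signals from 2 to 4 had an SD of 0.60, larger than that difference. SPS19, the peroxisomal dienoyl-CoA reductase, gave 65.3 on replicate 1 and 70.1 on replicate 2, and IDP3, which supplies that enzyme with NADPH, gave 8.65 on replicate 1 and 9.12 on replicate 2. SPS19 was above the median of all genes on both arrays, and DCI1 and IDP3 were in the dimmest 25%. POT1 and SPS19 were the 2 of the 13 fatty acid oxidation genes above that median on both arrays, beside 48.2% of all genes.

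Acetyl units leave the peroxisome as acetylcarnitine. CAT2, the carnitine acetyltransferase of peroxisomes and mitochondria, gave 29.2 on replicate 1 and 27.7 on replicate 2. CRC1, the mitochondrial carrier that takes acetylcarnitine in, gave 14.9 on replicate 1 and 17.8 on replicate 2. CRC1 was higher on replicate 2 by a log2 difference of 0.25 and CAT2 had -0.08. Of this pair, the difference of CRC1 alone was larger than the SD of 0.22 among genes of like signal, whose median difference was 0.04. The mean signal of CRC1 was 16.4, and genes with signals from 8 to 16 had an SD of 0.26, so this depends on the limits of the bins of signal.

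Among the peroxins, PEX11, which promotes the growth and division of peroxisomes, gave 159.3 on replicate 1 and 176.8 on replicate 2, and was the 1 peroxin gene of 14 in the brightest 25% on both arrays. PEX3 and PEX19, which insert proteins into the peroxisomal membrane, gave 34.5 on replicate 1 and 38.2 on replicate 2 for PEX3 and 69.7 on replicate 1 and 78.6 on replicate 2 for PEX19. The genes of the import receptors gave 20.6 on replicate 1 and 19.7 on replicate 2 for PEX5, which binds the C-terminal targeting signal of most matrix enzymes, and 19.8 on replicate 1 and 18.7 on replicate 2 for PEX7, which binds the N-terminal signal of Pot1. Both receptor genes lay below the median of all genes on both arrays.

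The docking complex at the membrane is made of Pex13, Pex14 and Pex17. PEX13 gave 17.5 on replicate 1 and 17.6 on replicate 2. PEX14 gave 24.7 on replicate 1 and 26.7 on replicate 2. The third docking gene, PEX17, gave 11.4 on replicate 1 and 10.8 on replicate 2. All 3 lay below the median of all genes, and PEX17 was the 1 peroxin gene with a mean signal under 16. PEX8, which links docking to the ubiquitin ligases from inside the peroxisome, gave 74.5 on replicate 1 and 78.7 on replicate 2. Of the subunits of that ligase complex, PEX2 gave 56.8 on replicate 1 and 57.8 on replicate 2. PEX10 gave 16.4 on replicate 1 and 18.3 on replicate 2, and so lay below the median of all genes on both arrays while PEX2 lay above it. The remaining genes act in receptor recycling. PEX4, a ubiquitin-conjugating enzyme, gave 16.9 on replicate 1 and 17.7 on replicate 2. PEX6, an ATPase that pulls receptors out of the membrane, gave 46.3 on replicate 1 and 47.3 on replicate 2. Its membrane anchor PEX15 gave 19.9 on replicate 1 and 20.9 on replicate 2. Of the 14 peroxin genes, 5 (PEX2, PEX6, PEX8, PEX11 and PEX19) were above the median of all genes on both arrays, beside 48.2% of all genes.

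The regulators sat close to that median. OAF1 and PIP2, whose products form the oleate-responsive activator, gave 38.4 on replicate 1 and 38.4 on replicate 2 for OAF1 and 43.7 on replicate 1 and 43.1 on replicate 2 for PIP2. ADR1, the activator of glucose-repressed peroxisomal and ethanol genes, gave 48.0 on replicate 1 and 42.8 on replicate 2. OAF1 and PIP2 had log2 differences of -0.0028 and -0.02, and ADR1 had -0.16, smaller than the SD of 0.18 among genes of like signal. These factors are known to be regulated after transcription as well, and a signal does not measure their activity.

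The replicates were close to each other for these genes. Of the 54, 47 had a mean signal of at least 16, the level used for comparing the arrays, and 7 were dimmer (CIT3, DAL7, POX1, CTA1, DCI1, IDP3 and PEX17). Of the 47, 0 differed by more than 1.5-fold between the arrays, beside 0.722% of the 4573 genes of the array that passed the same filter. Their log2 differences ran from -0.16 (ADR1) to 0.25 (CRC1). Their median was 0.03, which turned to -0.0052 after loess, beside 0.02 as deposited over the 4573 genes. The median size of the difference was 0.08 for the 47 genes and 0.10 for the 4573 genes. Without the filter, DCI1 was the member nearest to the threshold, 1.47-fold higher on replicate 2. Of the 54 genes, 11 (20.4%) differed by more than 1 SD of the genes of like signal, beside 27.7% of 5630 genes of the array whose mean signal was 1 or more. These 11 were IDP1, LPD1, PDB1, ICL1, DCI1, PXA1, CRC1, PEX11 and PEX19, higher on replicate 2, and FUM1 and MDH1, lower. Each difference was measured from 0, while genes of like signal had median differences of their own. Those medians were 0.04 for signals from 16 to 32 and from 32 to 64, 0.02 from 128 to 256 and -0.06 from 512 to 2048. The 11 were counted without removing that shared offset. Across the 54 genes Pearson's r of log2 signal between the arrays was 0.998 and Spearman's rho 0.997, beside 0.990 and 0.992 across 5656 genes. Genes are not independent replicates, and these points share the same 2 arrays.

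**Figure D3:**
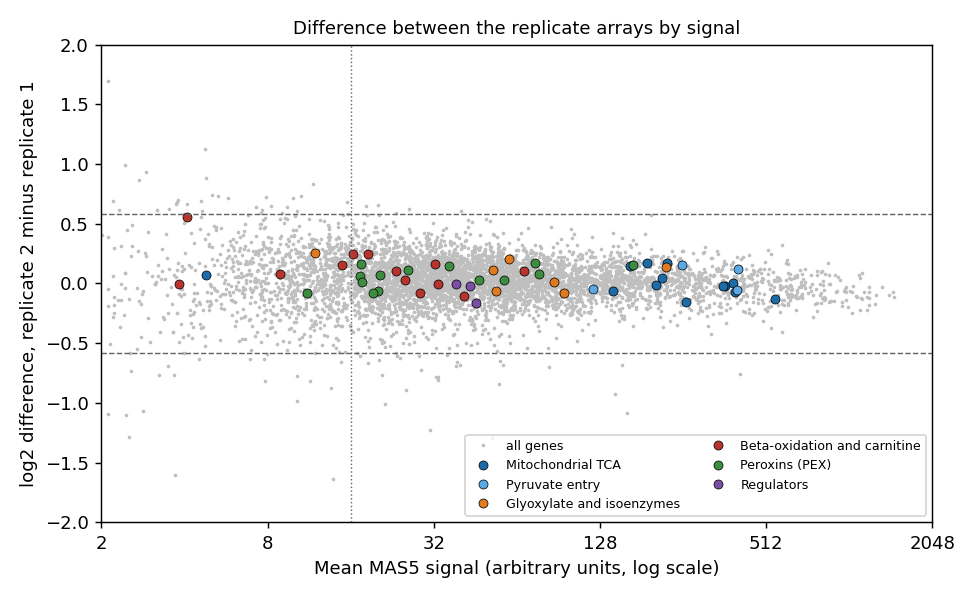
Log2 difference between the arrays (replicate 2 minus replicate 1) against mean MAS5 signal (log scale) for all genes (grey) and the 54 genes coloured by group, with dashed lines at 1.5-fold and a dotted line at a signal of 16; 68 dim or distant genes fall outside the axes. The coloured points lie between the dashed lines, with DCI1, at the left, closest to the upper one.

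By group, genes higher on replicate 2 as deposited were counted among those that passed the filter on dim signals. They numbered 5 of 12 for the mitochondrial TCA cycle, 2 of 4 for pyruvate entry and 4 of 6 for the glyoxylate group. The counts were 6 of 9 for fatty acid oxidation, 11 of 13 for the peroxins and 0 of 3 for the regulators. Of all genes of the array that passed this filter, 56.6% were higher on replicate 2. The peroxin median was a log2 difference of 0.07 and stayed above 0 with 4 other scalings, which gave 0.03 to 0.06 and 8 to 11 genes higher. The median for fatty acid oxidation was 0.10, and 0.06 to 0.09 with those scalings. In the glyoxylate group, 3 of 6 were higher with each of them. That of the mitochondrial TCA genes was -0.01 and turned to 0.02 after quantile normalization, with 8 of 12 higher. The 3 regulators were lower on replicate 2 as deposited, and 1 of them became higher after the local median was subtracted.

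On this array the numbers of probe sets follow the order of genes along chromosomes, so that 97.9% of consecutive probe sets detect genes of one chromosome. The 54 genes are spread over 15 chromosomes, with 10 on chromosome IV and 8 each on chromosomes XIV and XV. IDP1 and PEX19 are the 1 pair of members that are direct neighbours in the gene order of the RefSeq assembly R64. Their log2 differences were 0.17 and 0.17, while the median over a window of genes with neighbouring probe set numbers was -0.0077. Over the genes of the array with a mean signal of at least 16 that local median ran from -0.15 to 0.13. Over the 47 members among them it ran from -0.04 to 0.11. It was 0.11 around LPD1, 0.10 around PEX3 and PEX5, and 0.09 around ICL1. Its part in the differences of these genes was not tested.

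Further genes of the same pathways, 54 in all, were taken from 4 lists. Of these, 42 had a mean signal of at least 16, and 0 of the 42 differed by more than 1.5-fold between the arrays. Of all genes that passed the same filter, 0.722% did. The median signal of the 54 was 40.9, and 10 of 54 were in the brightest 25% on both arrays.

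Of 14 mitochondrial partners, 7 were in the brightest 25%. Succinate dehydrogenase is the TCA cycle step that is also part of the respiratory chain. Its subunit genes SDH4 and SDH3 were the 2 with the highest mean signal of that list. SDH4 gave 267.8 on replicate 1 and 283.3 on replicate 2, and SDH3 gave 254.4 on replicate 1 and 239.2 on replicate 2. SDH2 gave 240.2 on replicate 1 and 246.0 on replicate 2. SDH1 gave 78.5 on replicate 1 and 81.1 on replicate 2, outside the brightest 25% of genes on both arrays. SFC1, the succinate and fumarate carrier known to be needed for growth on ethanol or acetate, had the lowest mean signal of the list. It gave 7.39 on replicate 1 and 9.02 on replicate 2. PYC1, a pyruvate carboxylase that replenishes oxaloacetate, gave 157.6 on replicate 1 and 234.5 on replicate 2, a log2 difference of 0.57 that lay just inside the threshold of 1.5-fold, while its paralogue PYC2 gave 189.0 on replicate 1 and 193.2 on replicate 2. These pyruvate carboxylase genes are alike in sequence, and how far their probes share transcripts was not tested.

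Among 10 genes that handle acetyl and acyl groups, PNC1 gave 693.2 on replicate 1 and 638.7 on replicate 2 and FAA1, a long-chain acyl-CoA synthetase, gave 141.2 on replicate 1 and 144.0 on replicate 2. PNC1 encodes a nicotinamidase that is known to be carried into peroxisomes. YAT1, the outer mitochondrial carnitine acetyltransferase, had the lowest mean signal of the list, with 20.0 on replicate 1 and 18.3 on replicate 2. ANT1, the peroxisomal ATP carrier that Faa2 depends on, gave 45.4 on replicate 1 and 49.7 on replicate 2, and TES1, the peroxisomal thioesterase, gave 42.6 on replicate 1 and 41.1 on replicate 2. Both lay above the median of all genes on both arrays.

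The 17 other peroxisome genes had a median signal of 23.4, and 1 was in the brightest 25%. FIS1, a fission factor of mitochondria and peroxisomes, gave 109.4 on replicate 1 and 92.1 on replicate 2, and VPS1, a dynamin that divides peroxisomes, gave 61.7 on replicate 1 and 59.3 on replicate 2. PEX32, a peroxin of the endoplasmic reticulum that limits peroxisome number, had the lowest mean signal, with 7.03 on replicate 1 and 8.08 on replicate 2. DNM1, the other dynamin of peroxisome division, gave 28.0 on replicate 1 and 18.7 on replicate 2, and its log2 difference of -0.58 was just inside the threshold of 1.5-fold. It passed the threshold after median centring and after quantile normalization (each -0.60) and after loess (-0.62). PEX22, the membrane anchor of Pex4, gave 24.3 on replicate 1 and 18.6 on replicate 2. For DNM1 the local median in probe set number was -0.06 and for PEX22 it was -0.04. Its part in the differences of these 2 genes was not tested.

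Of 13 other regulators, 0 were in the brightest 25% and 6 were in the dimmest 25% on both arrays. RTG2, a sensor of the retrograde pathway that acts on CIT2, gave 61.2 on replicate 1 and 68.9 on replicate 2, and HAP4, the activating subunit of the Hap complex of respiratory genes, gave 52.8 on replicate 1 and 56.7 on replicate 2, the 2 with the highest mean signal. HAP5, a DNA-binding subunit of the same complex, had the lowest, with 7.23 on replicate 1 and 7.30 on replicate 2. CAT8 and SIP4, activators of the glyoxylate and gluconeogenic genes in the absence of glucose, gave 11.1 on replicate 1 and 12.4 on replicate 2 for CAT8 and 13.2 on replicate 1 and 12.5 on replicate 2 for SIP4. SNF1, the kinase that relieves glucose repression, gave 48.8 on replicate 1 and 60.1 on replicate 2, and MIG1, the repressor that it inhibits, gave 31.1 on replicate 1 and 29.9 on replicate 2. SNF1 had the largest log2 difference of this list among genes that passed the filter, 0.30.

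**Figure D4:**
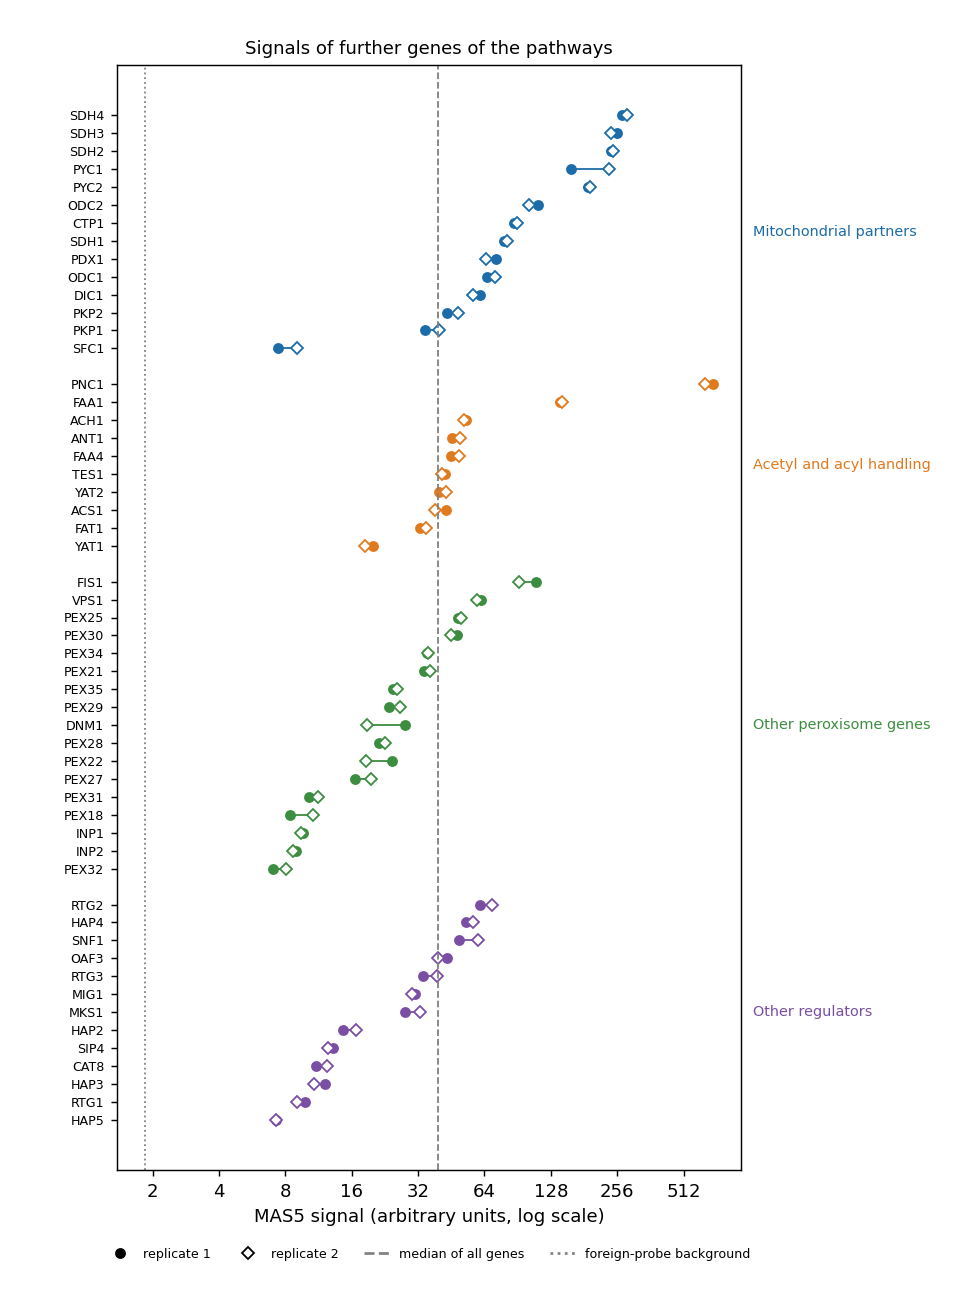
MAS5 signals (log scale) of the 54 further genes on replicate 1 (filled circles) and replicate 2 (open diamonds), ordered by mean signal within 4 lists, with the median of all genes (dashed) and the higher foreign-probe background (dotted). The widest pairs among the brighter genes are those of PYC1 and DNM1, and the points of most peroxisome genes lie left of the median of all genes.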

How the data were processed

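Total RNA (about 20 µg per sample, from cells harvested at an OD600 of 0.5 to 0.7, per the labels' protocols) was measured on 2 one-colour Affymetrix arrays, 1 per replicate, of 1 group. Each deposited value is the linear intensity of a probe set, which the authors computed with MAS5, per the submitters' processing notes. The version of MAS5 and its scaling target are not stated there. One factor per array moves all genes of that array alike. The number of arrays limits the precision, and no p-value was computed.

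Of 9335 probe sets, 6504 had 1 gene symbol in the platform annotation, which can be old. They named 5656 genes, all matched to RefSeq R64 by gene identifier, and each gene was read from its brightest probe set by mean log2 signal. Neither files nor labels name a genome build, and no coordinates or sequences are given. Background was the 95th percentile of 13 foreign control probe sets. Arrays were compared on the log2 scale over genes whose mean signal was 16 or more, and a gene was counted as differing past 1.5-fold. Genes of like signal are those in the same bin of signal, mostly 2-fold wide. A difference was measured from 0 and set against the SD of the bin, whose median was not subtracted. The local median was taken over a window of genes with neighbouring probe set numbers. Alternatives were median centring, quantile normalization, loess, the local median subtracted, other filters, an offset of 50, other backgrounds, averaging over the probe sets of a gene, and each array alone. The rule for the members uses symbols and no signal, but members, lists and thresholds were drawn up with earlier results of these data known. All members are named, and of the further genes the 2 brightest and the dimmest of each list. SDH1, SDH2, PYC1, PYC2, ANT1, TES1, DNM1, PEX22, CAT8, SIP4, SNF1 and MIG1 were named after their values were seen. Python 3.11.15, pandas 2.3.3 and statsmodels 0.14.6 were used.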

Additional observations from a re-analysis of the deposited data

How the results depend on the processing

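The count of the 54 genes above background was 54 with the highest foreign control probe set, 53 after averaging over the probe sets of a gene, where POX1 was lost, and 40 with the lower quartile of all genes as the threshold. The count past 1.5-fold between the arrays was 0 with each of the 8 alternatives run. Some of these could not have raised it. A filter at a mean signal of 32 only removes genes, and the offset of 50 shrinks each difference. Averaging over probe sets changes only POX1, which stays below the filter. Of the further pathway genes, the count past 1.5-fold was 0, and 1 (DNM1) after median centring, quantile normalization or loess, alternatives chosen for these genes after seeing the data. The median log2 difference of 0.03 over the 47 brighter genes had no settled direction, being -0.0052 after loess and between 0.0095 and 0.04 with the 7 others; the cause was not tested. With either array alone, the median signal was 49.1 to 49.9 over all 54 genes, 211.7 to 237.1 for the mitochondrial TCA genes, 314.1 to 330.2 for pyruvate entry, 55.7 to 64.1 for the glyoxylate group, 22.4 to 24.1 for fatty acid oxidation, 22.6 to 23.8 for the peroxins and 42.8 to 43.7 for the regulators. No paired analysis was possible because only a single group was analysed here. Dim signals limit what can be read: log2 differences had an SD of 0.60 for genes with signals from 2 to 4, 0.26 from 8 to 16 and 0.11 from 512 to 2048.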
